A study of Homo sapiens with 12 samples.

Results

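The 5 antiviral genes IFITM1, IFITM2, IFITM3, IRF7 and RIGI (also named DDX58) were followed through 12 RNA-seq libraries of HaCaT, a long-established human keratinocyte cell line. They are 5 of the 61498 entries of the count tables, were chosen by name, and lie in chromosome stretches where the gene names of the tables and the reads match. All 5 were among the 10800 entries that passed the filter of at least 1 CPM (counts scaled to the size of the library) in at least 3 libraries. The cells carried a control short hairpin RNA (shControl) or one against MLL1 (shMLL1, a knockdown of the histone H3 lysine 4 methyltransferase gene KMT2A), UTX (shUTX, a knockdown of the histone H3 lysine 27 demethylase gene KDM6A) or NRF2 (shNRF2, a knockdown of NFE2L2, which encodes the main transcription factor of the antioxidant response). Each of the 4 derivatives was left untreated or exposed for 24 h to 100 µM H2O2, an oxidant, or to 25 µg/mL cerium oxide (CeO2) nanoparticles, and gave 1 library per condition. The sources used here do not say whether a derivative is 1 clone or a pool. The 3 treatments therefore served as the repeats of a derivative and the 4 derivatives as the repeats of a treatment, and p-values measure only the spread between these libraries.

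IFITM1, IFITM2 and IFITM3 are small membrane proteins that hinder the fusion of enveloped viruses with cell membranes. RIGI is a cytoplasmic sensor that binds viral RNA bearing a triphosphate at its end and signals through MAVS to switch on interferon genes, and IRF7 is the transcription factor that, once phosphorylated, drives type I interferon genes. All of them are themselves induced by interferon, through the factor ISGF3, which binds the interferon-stimulated response element (ISRE) in promoters.

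The promoters are shown as background on the ISRE. RefSeq windows (GRCh38.p14) matched 3 of the 5 genes, and not IFITM2 or IRF7. The lines give 125 bases before to 25 bases after the RefSeq start site, 5′ to 3′ on the strand of the gene. This site lies inside the gene coordinates given further below, so positions are not counted from the ends of those coordinates. Capitals mark the ISRE core (GAAA, any 2 bases, then GAAA), which was searched on both strands.
IFITM1 promoter, chr11:313915-314064 (+ strand): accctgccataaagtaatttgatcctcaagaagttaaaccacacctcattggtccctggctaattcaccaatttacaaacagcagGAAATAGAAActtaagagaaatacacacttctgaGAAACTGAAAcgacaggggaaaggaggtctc
IFITM3 promoter, chr11:320836-320985 (- strand): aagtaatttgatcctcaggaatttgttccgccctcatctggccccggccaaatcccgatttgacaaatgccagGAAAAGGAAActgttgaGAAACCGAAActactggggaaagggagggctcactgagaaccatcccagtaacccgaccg
RIGI promoter, chr9:32526172-32526321 (- strand): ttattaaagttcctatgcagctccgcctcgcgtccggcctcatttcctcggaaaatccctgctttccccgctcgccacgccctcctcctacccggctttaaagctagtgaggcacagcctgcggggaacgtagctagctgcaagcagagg
IFITM1 held 2 matches, GAAATAGAAA beginning at position -40 and GAAACTGAAA at position -6 from the start site. IFITM3 also held 2 matches, GAAAAGGAAA at position -52 and GAAACCGAAA at position -35. The letters of the core were not found in the RIGI window. Of 35116 promoter windows of 300 bases, 3.57% held the core and 0.259% held it at least 2 times. These matches describe the sequences, and neither binding nor a link to the levels below was tested.

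The IFITM genes are close copies, which bears on how their reads can be counted. The following 60 coding bases, printed in lower case, are the same in the 3 genes (GENCODE 29, GRCh38).
IFITM1 coding bases 175 to 234, IFITM2 coding bases 235 to 294 and IFITM3 coding bases 238 to 297: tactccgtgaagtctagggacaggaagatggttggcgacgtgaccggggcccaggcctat
Over the aligned coding bases, IFITM2 and IFITM3 were 93.9% identical, IFITM1 and IFITM3 90.1%, and IFITM1 and IFITM2 86.8%. Of all runs of 50 bases in the transcript of each gene, 42.3% in IFITM1, 10.4% in IFITM2 and 17.9% in IFITM3 also occurred in another of the 3. For runs of 100 bases these shares were 37.7%, 0% and 5.92%. Of the exonic bases of IFITM1, 32.5% (351 of 1080) are also annotated to IFITM2 on the same strand. Runs within these bases can be among the shared runs of IFITM1, so this overlap is not separate from those shares. How much of the IFITM1 shares comes from the overlap, and how much from likeness between the copies, was not counted. Single IFITM values, those of IFITM1 above all, are therefore uncertain, and each test is also given for the sum of the 3. Antisense genes that overlap IFITM2 and IFITM3 had 0 to 8 counts in any library.

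IFITM1 (ENSG00000185885) lies at chr11:313506-315272, on the plus strand, and IFITM2 (ENSG00000185201) at chr11:307631-315272, also on the plus strand. IFITM3 (ENSG00000142089) is on the minus strand at chr11:319669-327537 and IRF7 (ENSG00000185507) on the minus strand at chr11:612553-615999. RIGI (ENSG00000107201) is on chromosome 9, chr9:32455705-32526324, on the minus strand (all GRCh38).

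The names of the tables did not match the reads everywhere, so names were read only in 4 stretches. The stretches were defined as runs of at least 3 genes that every cell uses at 30 CPM or more, with a median of at least 150 CPM. The chromosome 11 stretch rests on 3 such genes and the chromosome 9 stretch on 4. Those genes defined the stretches, so they are no check of them. Among coding genes not used for this, 85.7% (24 of 28) had at least 1 CPM in the chromosome 11 stretch and 56.6% (73 of 129) in the chromosome 9 stretch, against 33.0% outside the stretches. Total counts were 5388335 to 7670446 per library. KMT2A had 3283 to 3539 counts in shControl, 228 to 565 in shMLL1 and 1711 to 1969 in shUTX. KDM6A had 5 or 6 counts in shControl and 0 or 1 in shUTX, and NFE2L2 had 1 to 16 in shControl and 0 in shNRF2, too few to check these knockdowns, and all 3 genes lie outside the stretches. Of the keratinocyte markers, PKP3 (8421 to 16630 counts), AQP3 and TINCR were present, and the usual keratins lie where names were not read. The untreated shControl library stood apart from the exposed shControl libraries on the first principal component (-33.5 against -18.3 and -18.2), so the additive comparisons with shControl or the untreated libraries are given with and without it. Levels below are TMM-scaled CPM.

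Per kilobase of exon in shControl, IFITM3 was the most abundant of the 5 at 1355 CPM per kb, followed by IFITM1 at 218, IFITM2 at 170, IRF7 at 24.5 and RIGI at 9.98. This order is across genes and rests on the annotated exonic lengths.

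IFITM3 was measured at 2395, 1456 and 1629 CPM in shControl (untreated, H2O2 and CeO2), at 2462, 2156 and 2288 in shMLL1, at 1001, 1070 and 1006 in shUTX, and at 2149, 2146 and 2203 in shNRF2. The 3 shUTX libraries lay below the other 9. IFITM1 was at 297, 191 and 218 CPM in shControl, 313, 322 and 311 in shMLL1, 125, 123 and 132 in shUTX, and 328, 333 and 355 in shNRF2. Here too the shUTX libraries were the lowest, and all shMLL1 and shNRF2 libraries lay above all of shControl. IFITM2 was at 340, 222 and 227 CPM in shControl, 251, 211 and 242 in shMLL1, 67.7, 79.7 and 81.2 in shUTX, and 305, 308 and 303 in shNRF2. The shUTX libraries did not overlap the others, whereas shMLL1 and shNRF2 overlapped the range of shControl.

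IRF7 was at 84.0, 49.3 and 59.7 CPM in shControl, 125, 113 and 116 in shMLL1, 40.3, 50.9 and 46.1 in shUTX, and 71.3, 65.0 and 75.2 in shNRF2. The shMLL1 libraries were above all others, and shUTX overlapped shControl through the shControl library exposed to H2O2. RIGI, the sensor, was at 45.01, 39.6 and 45.8 CPM in shControl, 51.4, 67.4 and 54.3 in shMLL1, 21.3, 27.4 and 20.5 in shUTX, and 57.1, 46.8 and 55.3 in shNRF2. Its shUTX libraries were the lowest 3 of the 12, and shMLL1 and shNRF2 both lay above shControl without overlap. Scaled by plain totals, however, RIGI in shNRF2 with H2O2 (47.67) was below shControl with CeO2 (47.87). Neither of these 2 differences passed the edgeR test given below (adjusted p = 0.0745 and 0.255). Ordered by the means of the derivatives, shUTX was lowest for all 5 genes, and the highest derivative was shMLL1 for IFITM3, IRF7 and RIGI and shNRF2 for IFITM1 and IFITM2. Neighbours in that order overlapped for shMLL1 and shNRF2 in IFITM3 and RIGI, for shNRF2 and shControl in IFITM2, IFITM3 and IRF7, for shControl and shMLL1 in IFITM2, and for shControl and shUTX in IRF7. How many of all 10800 entries show the same order or separation was not counted. Of these entries, 13.7% were lower in shUTX than in shControl at an edgeR adjusted p under 0.05. By the same test 5.38% were higher in shMLL1 than in shControl and 2.78% were higher in shNRF2.

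**Figure D1:**
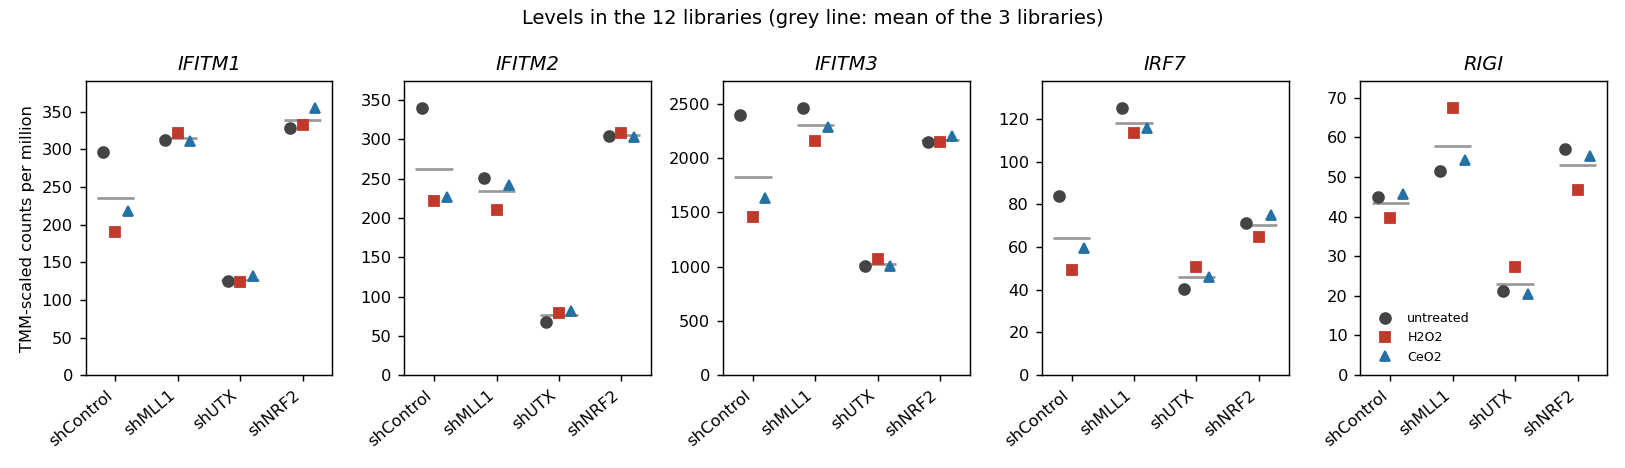
TMM-scaled CPM (y axis, from 0) of the 5 genes in each derivative (x axis), with a point for each library (circle untreated, square H2O2, triangle CeO2) and a grey line at the mean of the 3. The shUTX points sit lowest in each panel but that of IRF7, where shUTX and shControl overlap. In shControl the untreated library lies above the exposed ones for the IFITM genes and IRF7 but not for RIGI.

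In shUTX against shControl, across the 3 treatments, all 5 genes were lower. IFITM2 fell by 1.77 ± 0.14 on the log2 scale (SE, edgeR adjusted p = 5.98e-07), a 3.40-fold difference and the largest of the 5. RIGI fell by 0.92 ± 0.15 (adjusted p = 0.000440), IFITM1 by 0.88 ± 0.12 (adjusted p = 8.46e-05) and IFITM3 by 0.81 ± 0.12 (adjusted p = 0.000219). IRF7 fell by 0.47 ± 0.15 (adjusted p = 0.0340). Over all 10800 entries 26.3% were called in this comparison and 13.7% were called lower (called meaning an adjusted p under 0.05), so this derivative differed widely from shControl. The 3 IFITM genes summed fell by 0.90 ± 0.12 (adjusted p = 8.06e-05). In bulk RNA, fewer cells with a transcript and less of it per cell cannot be told apart.

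The IRF7 call was the least firm of the 5. It was lost without the untreated shControl library (log2 difference -0.26, adjusted p = 0.0981), without the untreated shUTX library (-0.31, adjusted p = 0.194), without the CeO2 shUTX library (adjusted p = 0.0862), without any 1 of the shMLL1 libraries (adjusted p = 0.0506 to 0.0531) and with only the 6 compared libraries (adjusted p = 0.148). IFITM1, IFITM2, IFITM3 and RIGI were called with each of the 12 libraries left out, with log2 differences of -0.69, -1.57, -0.61 and -0.88 without the untreated shControl library.

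IFITM2 also took a smaller share of the IFITM reads in shUTX. It held 5.67 to 6.67% of the summed IFITM1, IFITM2 and IFITM3 counts there, 7.84 to 8.51% in shMLL1, 10.9 to 11.9% in shControl and 10.6 to 11.1% in shNRF2, so shUTX and shMLL1 overlapped neither shControl nor each other. These shares are descriptions and were not tested.

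In shMLL1 against shControl, IRF7 rose by 0.89 ± 0.14 on the log2 scale (edgeR adjusted p = 0.000795), a 1.86-fold difference, and IFITM1 by 0.43 ± 0.12 (adjusted p = 0.0225). These are 2 of the 5 genes, where 12.2% of all entries were called and 5.38% were called higher. IFITM3 had a log2 difference of 0.35 (adjusted p = 0.0751), RIGI 0.40 (adjusted p = 0.0745) and IFITM2 -0.16 (adjusted p = 0.493), and none of these passed. The summed IFITM genes had a log2 difference of 0.31 (adjusted p = 0.1099) and did not pass, so the IFITM1 call does not extend to the sum. IRF7 was called under every alternative tried, whereas IFITM1 was lost on leaving out the H2O2 or the CeO2 library of shControl, or any single library of shMLL1 (then at 0.0512 to 0.137). Without the untreated shControl library 4 of the 5 were called, IFITM1 at 0.62, IFITM3 at 0.55, IRF7 at 1.11 and RIGI at 0.44 (adjusted p = 0.0286), and IFITM2 was at 0.05 (adjusted p = 0.735). The share of all entries called in that fit is not given, so whether these genes stood out there is not known.

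In shNRF2 against shControl, IFITM1 rose by 0.54 ± 0.11 on the log2 scale (edgeR adjusted p = 0.0136), the only call among the 5, where 5.33% of entries were called and 2.78% called higher. RIGI had a log2 difference of 0.29 (adjusted p = 0.255), IFITM3 0.27 (0.233), IFITM2 0.23 (0.341) and IRF7 0.15 (0.612). The summed IFITM genes were at 0.29 (0.183) and did not pass either. The IFITM1 call was lost without the H2O2 shControl library (adjusted p = 0.0845), the H2O2 shNRF2 library (0.0761) or the CeO2 shNRF2 library (0.0783), and with only the 6 compared libraries (0.145). Without the untreated shControl library, IFITM1 (0.73), IFITM3 (0.47), IFITM2 (0.43) and IRF7 (0.36, adjusted p = 0.0480) were called. The share of all entries called in that fit is not given either.

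**Figure D2:**
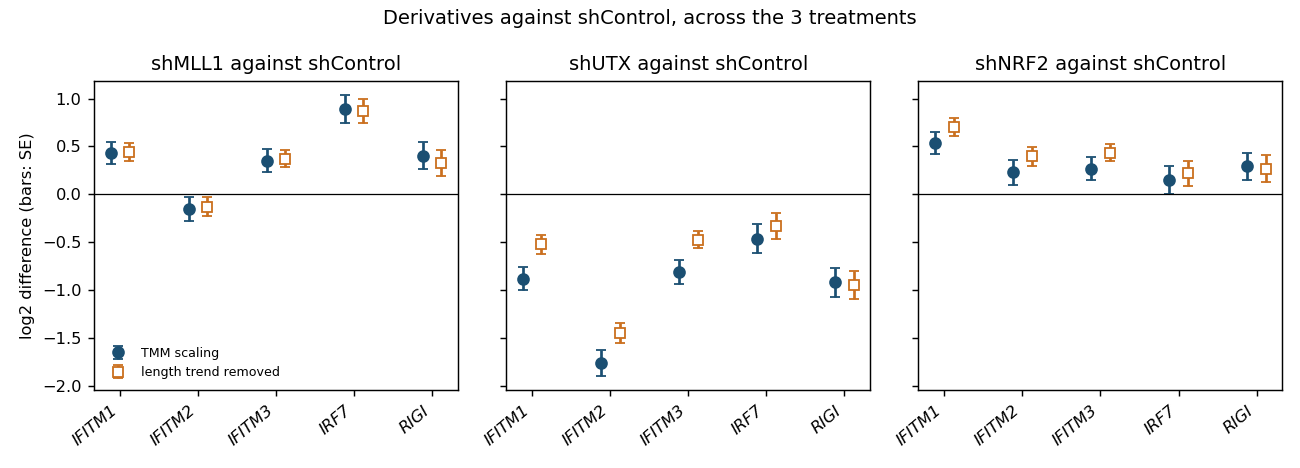
Log2 difference (y axis, bars of 1 SE) of each gene in a knockdown derivative against shControl across the 3 treatments, with TMM scaling (filled circles) and with each library's length trend removed (open squares). All filled points of shUTX lie below 0, and in shMLL1 the IRF7 points lie highest.

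The knockdowns also differed from each other. In shUTX against shMLL1 all 5 genes were lower, with log2 differences of -1.61 for IFITM2, -1.36 for IRF7, -1.32 for IFITM1, -1.32 for RIGI and -1.16 for IFITM3 (edgeR adjusted p = 1.5e-06 to 2.25e-05), where 18% of entries were called and 9.46% called lower. These 5 held under every alternative, and the summed IFITM genes were at -1.21 (adjusted p = 6.93e-06). In shNRF2 against shUTX all 5 were higher, from 1.996 for IFITM2 and 1.42 for IFITM1 through 1.21 for RIGI and 1.08 for IFITM3 to 0.61 for IRF7 (adjusted p = 0.00834), where 23.4% of entries were called and 12.7% called higher. The sum was at 1.19 (adjusted p = 7.15e-06). The IRF7 call was lost without the untreated shUTX library (adjusted p = 0.0573) or the CeO2 shNRF2 library (0.0536). In shNRF2 against shMLL1 IRF7 fell by 0.74 ± 0.14 (adjusted p = 0.00326), the only one of the 5 called, where 11.3% of entries were called and 4.62% called lower. There IFITM2 had a log2 difference of 0.38 (adjusted p = 0.0699), IFITM1 of 0.10, IFITM3 of -0.08 and RIGI of -0.11, the last 3 with adjusted p of 0.626 to 0.727, and the sum of -0.02 (0.953).

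None of the 5 passed the test for either exposure across the 4 derivatives. With H2O2 the log2 differences were -0.21 for IFITM3, -0.20 for IRF7, -0.18 for IFITM2, -0.15 for IFITM1 and 0.06 for RIGI, and with CeO2 they were -0.16 for IFITM3, -0.12 for IFITM2, -0.10 for IRF7, -0.07 for IFITM1 and 0.00 for RIGI. The lowest adjusted p of the 5 was 0.283, for IFITM3 with H2O2, and that gene was called when no filter on low counts was used (adjusted p = 0.0432). The summed IFITM genes were at -0.20 with H2O2 (0.300) and -0.15 with CeO2 (0.441). Without the untreated shControl library the 5 values lay between -0.06 and 0.08 with H2O2 and between -0.01 and 0.07 with CeO2, none of them called. Of all entries, 0% were called with H2O2 and 0.0185% with CeO2 by edgeR, though 2102 and 1889 had an unadjusted p under 0.05. DESeq2 called 124 and 44 entries and limma-voom 0 and 0, none of the 5 among them.

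Within shControl, however, the IFITM genes and IRF7 were lower in both exposed libraries than in the untreated one. IFITM3 was at 0.608 times its untreated level with H2O2 (95% interval 0.593 to 0.623) and at 0.680 times with CeO2 (0.664 to 0.697). IRF7 was at 0.587 times (0.513 to 0.671) and 0.711 times (0.625 to 0.808), IFITM1 at 0.643 and 0.736 times, and IFITM2 at 0.651 and 0.667 times. RIGI was at 0.879 times (0.745 to 1.04) with H2O2 and 1.02 times (0.866 to 1.20) with CeO2, so its intervals included no change. The intervals are exact binomial and cover counting error only, and these ratios of 2 libraries carry no test. Scaled by plain totals in place of TMM, the ratios were 0.657 to 0.842 for the IFITM genes and IRF7 and 0.984 and 1.16 for RIGI.

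In the knockdown derivatives the ratios of the IFITM genes and IRF7 lay closer to 1. In shNRF2, the IFITM genes stood at 0.993 to 1.08 times their untreated level and IRF7 at 0.911 and 1.06 times. In shUTX, IFITM2 was at 1.18 and 1.20 times and IRF7 at 1.26 and 1.15 times, and IFITM1 and IFITM3 at 0.988 to 1.07 times. In shMLL1, IFITM3 was at 0.876 and 0.929 times, IFITM2 at 0.841 and 0.965 times, IRF7 at 0.904 and 0.926 times and IFITM1 at 1.03 and 0.994 times. RIGI went above its untreated level with H2O2 in shMLL1 (1.31 times, 1.13 to 1.52) and shUTX (1.29 times, 1.00 to 1.66) and below it in shNRF2 (0.819 times, 0.701 to 0.955). With CeO2 it was at 1.06, 0.961 and 0.968 times in shMLL1, shUTX and shNRF2, and all 3 intervals included 1.

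**Figure D3:**
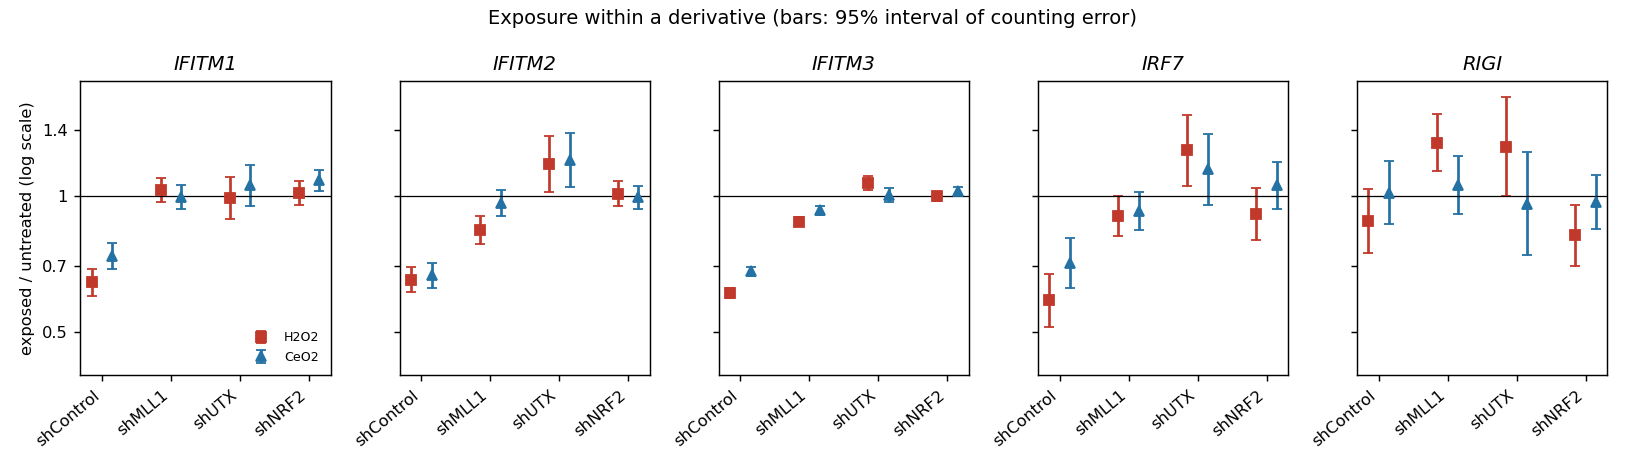
Ratio of the exposed to the untreated library (y axis, log scale) for each gene and derivative, squares for H2O2 and triangles for CeO2, with bars for the 95% interval of counting error. The shControl ratios of the IFITM genes and IRF7 lie between 0.587 and 0.736, and the RIGI ratios there lie near 1.

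An exploratory model (3 residual degrees of freedom), in which each knockdown could respond differently to being exposed, tested whether the response in a knockdown differed from that in shControl. All 3 such comparisons share the shControl libraries, the untreated one included, which cannot be left out. The model fits each untreated library exactly. Its SE and p therefore rest on how the difference between H2O2 and CeO2 varied between derivatives. They hold no spread between untreated libraries. In shUTX the response differed by 0.89 ± 0.20 on the log2 scale for IRF7 (edgeR adjusted p = 0.00464), 0.85 ± 0.14 for IFITM2, 0.69 ± 0.12 for IFITM3 and 0.57 ± 0.14 for IFITM1 (adjusted p = 0.00794), where 14.4% of entries were called and 6.8% called higher. The IFITM sum was at 0.68 (0.000598) and RIGI at 0.24 (0.650). In shNRF2 it differed by 0.65 ± 0.12 for IFITM3 (adjusted p = 0.000785), 0.61 ± 0.13 for IFITM1, 0.60 ± 0.13 for IFITM2 and 0.60 ± 0.18 for IRF7 (adjusted p = 0.0275), where 16.6% of entries were called and 8.02% called higher. The IFITM sum was at 0.64 (0.000664) and RIGI at -0.08 (0.877). The IRF7 call in shNRF2 was lost without the CeO2 shMLL1 library (adjusted p = 0.05002) or the CeO2 shNRF2 library (0.101), with no filter, and with DESeq2 (0.131). In shMLL1 only IFITM1 was called, at 0.56 ± 0.13 (adjusted p = 0.0496), where 0.648% of entries were called and 0.38% called higher, and it was called in 2 of the 8 fits that left out an exposed library. There IFITM3 was at 0.49 (0.0525) and the IFITM sum at 0.49 (0.0482). With DESeq2 the call passed from IFITM1 (0.0622) to IFITM3 (0.0369).

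The 4 genes with lower levels in exposed shControl are short, and the other short genes were on the whole lower there too. Among 320 coding genes of the matched stretches, the shortest 80, with up to 3001 exonic bases, include IFITM1, IFITM2, IFITM3 and IRF7 but not RIGI. Their median log2 change in shControl was -0.49 with H2O2 and -0.53 with CeO2, and that of the longest 80 was -0.0023 and 0.06. In shMLL1 the shortest 80 had medians of -0.21 and -0.16, in shUTX of -0.04 and 0.01, and in shNRF2 of 0.04 and 0.01. For comparison, the log2 ratio of IFITM3 in shControl averaged -0.64 over both agents. In the changed response the shortest 80 had medians of 0.36 in shMLL1, 0.57 in shUTX and 0.60 in shNRF2.

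When a smooth trend of log2 CPM with exonic length was removed from each library, an alternative added after seeing the data, the changed response was called for no gene in shMLL1 or shNRF2. In shNRF2 it was 0.28 for IFITM3 (adjusted p = 0.116), 0.23 for IFITM1 (0.264), 0.25 for IFITM2 (0.183) and 0.41 for IRF7 (0.148). In shUTX it was still called for IFITM2 (0.58), IRF7 (0.73) and IFITM3 (0.41) but not for IFITM1 (0.30, adjusted p = 0.184). The derivative differences of shUTX against shControl were still called for IFITM2 (-1.45), RIGI (-0.95), IFITM1 (-0.52) and IFITM3 (-0.47), the IFITM values being closer to 0 than before, and IRF7 lost its call (-0.33, adjusted p = 0.0842). In shNRF2 against shControl 3 genes were then called, IFITM1 (0.70), IFITM3 (0.44) and IFITM2 (0.40). In shMLL1 against shControl 3 were called as well, IRF7 (0.87), IFITM1 (0.44) and IFITM3 (0.37, adjusted p = 0.0145). Of all 10800 entries, 2857 were called in this setting for shUTX, 581 for shNRF2 and 1328 for shMLL1 against shControl. For the changed response 1522 were called in shUTX, 1762 in shNRF2 and 40 in shMLL1.

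**Figure D4:**
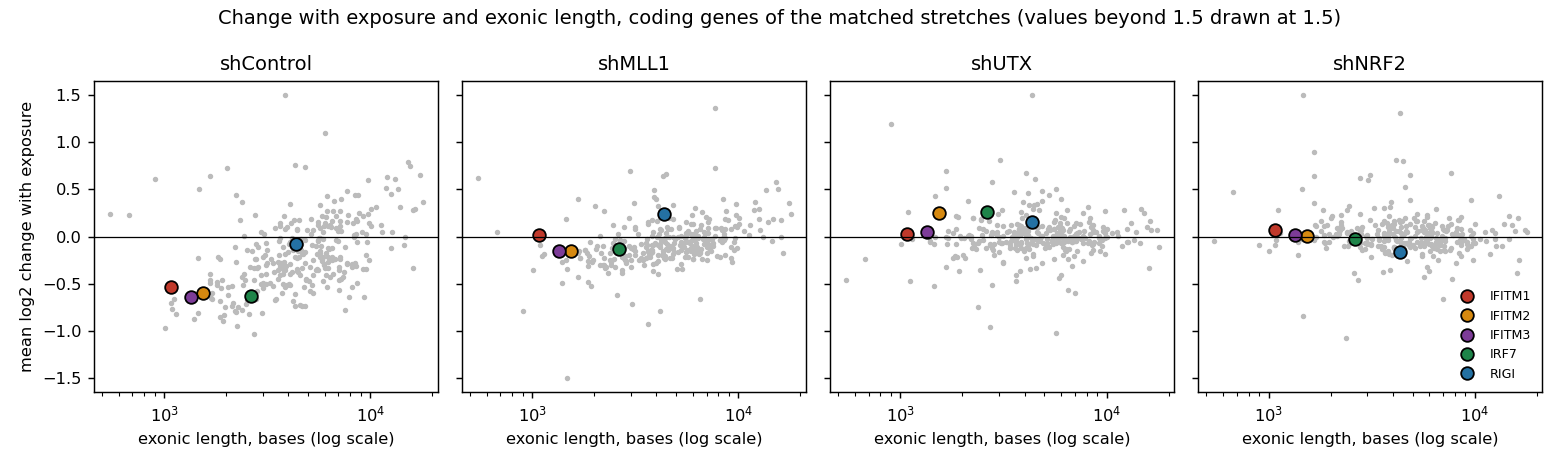
Mean log2 change of the 2 exposed libraries against the untreated one (y axis) by exonic length in bases (x axis, log scale) for the 320 coding genes of the matched stretches, 1 panel per derivative, with the 5 genes coloured and values beyond 1.5 drawn at 1.5. In shControl most of the short genes, IFITM and IRF7 among them, lie below 0, though some lie above it, and RIGI lies near it.

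The genes around these loci did not all follow. In the chromosome 11 stretch, 34 other entries passed the filter. In shUTX against shControl 4 of them were called higher and 9 lower, which is 38.2%, against 26.3% of all entries. Their median was -0.25, where IFITM1, IFITM2, IFITM3 and IRF7 were at -0.88, -1.77, -0.81 and -0.47. PGGHG, a glycosyl hydrolase gene 11524 bases from IFITM2, fell by 0.76 (edgeR adjusted p = 0.00122) and rose in shMLL1 by 0.54 (0.0118) and in shNRF2 by 0.60 (0.0127), as IFITM1 did. On the other side, B4GALNT4 rose in shUTX by 0.71 (0.0441), and PHRF1, 331 bases from IRF7, rose in shUTX by 0.26 (0.0205) and in shMLL1 by 0.41 (0.00210). Within 1 Mb of RIGI, 5 of 16 entries were called higher and 3 lower in shUTX (50%), with a median of 0.19. Its neighbour ACO1 fell in all 3 knockdowns, by 0.48 in shUTX, 1.02 in shMLL1 and 0.88 in shNRF2, and TOPORS was at 0.23 in shUTX (0.0611). In the changed response 14 of the 34 chromosome 11 entries (41.2%) were called higher in shUTX and 15 (44.1%) in shNRF2, and none lower. Of all entries, 6.8% and 8.02% were called higher there.

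Of the interferon system, few other genes lay where names could be read. Of 22 interferon genes 17 did, and 14 of these had 0 counts in all 12 libraries. IFNE, an epithelial type I interferon, had 0 to 11 counts, IFNK, the keratinocyte interferon, 0 to 2 and IFNB1 0 or 1. A count of 0 allows up to 3 counts, or 0.391 to 0.557 CPM when scaled by plain library totals. Of 44 sensing and signalling genes 4 did. SIGIRR, a negative regulator of interleukin-1 and Toll-like receptor signalling, fell in shUTX by 0.45 (edgeR adjusted p = 0.0144), and TICAM1, the adaptor of TLR3, rose in shUTX (0.33, adjusted p = 0.0168) and in shMLL1 (0.33, 0.0278). CACTIN and PIAS4 did not pass in any knockdown against shControl. SIGIRR was also called higher in the changed response, at 0.66 in shUTX (0.0100) and 0.56 in shNRF2 (0.0187). It lies in the chromosome 11 stretch, where 41.2% and 44.1% of the 34 other entries were called higher, as given above. TICAM1, CACTIN and PIAS4 were not called in the changed response of any knockdown. Of 56 interferon-stimulated genes 1 lay where names were read, IFITM5, with 0 counts throughout. The remaining 5, 40 and 55 genes of these lists lie where names were not read and are not given.

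Of the markers of other cell types, 2 of 8 for fibroblasts or stroma, 1 of 3 for endothelium, 1 of 4 for melanocytes and 2 of 5 for blood lay where names were read, and these were near 0 except for IL7R. CCL19 and CCL21 had 0 counts, PAX5 0 to 5, TEK 0 or 1 and SLC45A2 0 or 1 in the 12 libraries. IL7R, listed as a blood marker, had 1294 to 4554 counts and fell in shUTX by 1.15 (edgeR adjusted p = 8.3e-07). Of the keratinocyte markers, TINCR rose in shMLL1 by 1.93, in shUTX by 2.52 and in shNRF2 by 3.35, PKP3 fell in shUTX by 0.32 (0.0380) and AQP3 rose in shNRF2 by 0.64 (0.00450). The part of these differences in the interferon-linked values was not tested.

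Over the 12 libraries the log2 CPM of the 5 genes ran together, from a Pearson r of 0.638 for IFITM2 and IRF7 to 0.977 for IFITM1 and IFITM3. These values come from the same libraries, which share depth and length trends, and are given as a description. Among 407 other entries of the stretches, the pattern most like IFITM3 was that of CHMP5 (r = 0.981), followed by PLIN3 (0.963) and LRG1 (0.938). IFITM1 was nearest CHMP5 (0.963), C9orf72 (0.935) and HACD4 (0.922), and IFITM2 nearest ANO9 (0.975), TNFAIP8L1 (0.973) and BTBD2 (0.967). RIGI was nearest LRG1 (0.952), CHMP5 (0.917) and PGGHG (0.911). IRF7 was least tied to a single gene, with PTGER4 at 0.875, YJU2 at 0.866 and SIGIRR at 0.863.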

How the data were processed

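Total RNA of 12 libraries was sequenced. The submitters' processing notes name HTSeq 0.11.1, HISAT2 2.2.1, SAMtools 1.12, Trimmomatic 0.39 and the build GRCh38. Their settings, annotation and use of strand are not stated there or in other sources used here. The authors deposited whole read counts per gene in 2 tables, and untreated counts came from the H2O2 table (1 untreated cell differs between them). The genes, lists and tests were chosen with earlier results of these data known. Of 61498 identifiers 61399 had a name and 58298 were in GENCODE 29, the source of coordinates and exonic lengths.

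Genes outside 4 stretches were not read by name, except the silenced genes. A hidden Markov model marked runs of at least 3 of 460 genes that every cell uses at 30 CPM or more. Runs with a median of at least 150 CPM were used. The filter kept 10800 entries (1 CPM or more in 3 libraries or more). They were scaled by TMM and tested by the two-sided quasi-likelihood test of edgeR 4.0.16 (derivative and treatment additive, 6 residual degrees of freedom, Benjamini-Hochberg over all kept entries, threshold 0.05). Alternatives were upper-quartile or RLE scaling, no filter, a filter at 5 CPM, DESeq2 1.42.0, limma-voom (limma 3.58.1), the untreated counts of the other table, the IFITM genes summed, only the compared libraries, each library left out and, added after seeing the data, length trends removed from coding genes of the stretches (loess, span 0.75). Named are the 5 genes, list members kept in stretches, the 3 entries of highest r to each, the nearest kept coding neighbours and the silenced genes. On simulated counts with 200 changed entries of 10800, 62% of 2-fold and 36% of 1.5-fold changes were recovered for shUTX against shControl. For H2O2 against untreated 71% and 47% were recovered. The simulated libraries held no other differences, and 26.3% of entries were called in the real shUTX comparison, so recovery in the real data can differ.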

Additional observations from a re-analysis of the deposited data

Results flagged for a closer look

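For 9 values, the response to exposure in a knockdown differed from that in shControl by the test of the difference itself (edgeR, adjusted over 10800 entries, exploratory with 3 residual degrees of freedom), all of them with the higher ratio of exposed to untreated in the knockdown. In shUTX the difference on the log2 scale was 0.89 for IRF7, 0.85 for IFITM2, 0.69 for IFITM3 and 0.57 for IFITM1. In shNRF2 it was 0.65 for IFITM3, 0.61 for IFITM1, 0.60 for IFITM2 and 0.60 for IRF7. In shMLL1 it was 0.56 for IFITM1. Of all entries, 6.8% were called higher in shUTX, 8.02% in shNRF2 and 0.38% in shMLL1. The shortest 80 coding genes of the stretches, these genes among them, had median differences of 0.57, 0.60 and 0.36 in shUTX, shNRF2 and shMLL1. All 9 rest on the single untreated shControl library, and the test holds no spread between untreated libraries. With length trends removed 3 of the 9, IRF7, IFITM2 and IFITM3 in shUTX, were still called.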

How the results depend on the processing

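Of 1102 repeated values of the 5 genes, 1014 kept their direction and side of the threshold, 38 lost a call, 28 gained one and 22 changed sign, none of them a called value. The counts of called genes in shUTX against shControl (5), shUTX against shMLL1 (5), shNRF2 against shUTX (5) and the changed response of shUTX (4) stayed within 1.5 times. In shMLL1 against shControl the count of 2 became 1 with the IFITM genes summed and 4 with only the compared libraries, and 1 to 4 with a library left out. In shNRF2 against shControl the count of 1 became 2 with no filter, 0 summed, 3 with length trends removed, 0 with only the compared libraries, and 0 to 4 with a library left out. In shNRF2 against shMLL1 the count of 1 became 2 with no filter, with length trends removed and with only the compared libraries, and 1 to 2 with a library left out. With H2O2 the count of 0 became 1 with no filter. In the changed response of shMLL1 the count of 1 became 2 with RLE scaling, no filter or limma-voom, 0 with upper-quartile scaling, a filter at 5 CPM or length trends removed, 3 summed (1 call of the sum, counted for each IFITM gene), and 0 to 4 with a library left out. There DESeq2 also gave 1, but IFITM3 in place of IFITM1. The 4 of the changed response of shNRF2 became 0 with length trends removed, and IRF7 was lost there with no filter or DESeq2. Shares of all entries called are not given for the fits with a library left out. The causes were not tested.

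The sign changes were these. IFITM3 in shNRF2 against shMLL1 was 0.0649 with length trends removed and -0.129 to 0.0045 with a library left out, and RIGI there was -0.206 to 0.0288. RIGI with CeO2 was -0.0069 with RLE scaling, -0.0074 with DESeq2 and -0.0013 with only the compared libraries, and -0.0705 to 0.0773 with a library left out. With a library left out, CeO2 gave -0.136 to 0.0716 for IFITM1, -0.238 to 0.0286 for IFITM2 and -0.225 to 0.0503 for IRF7, and H2O2 gave -0.0466 to 0.177 for RIGI. Likewise IFITM2 in shMLL1 against shControl was -0.269 to 0.053, IRF7 in shNRF2 against shControl -0.0127 to 0.362, and RIGI in the changed response of shNRF2 -0.286 to 0.102. No paired analysis was possible because the labels give no replicate numbers to pair by, and the additive model already compares derivatives within treatments and treatments within derivatives. Depth limits RIGI most, with the widest counting intervals of the 5 genes.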
